A study of Mus musculus with 2 samples.

Results

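Collagens are the main structural proteins of connective tissue, each built from 3 chains wound into a triple helix and each chain encoded by its own gene. Fibrillar collagens form the banded fibres that give tissue tensile strength, type IV collagen forms the sheet of the basement membrane under epithelium and around vessels, with types XV and XVIII attached to it, and type VI collagen forms beaded filaments between fibres and cells. In salivary glands these chains are known as products of fibroblasts, of the mural cells that wrap small vessels, of endothelium and of the Schwann cells that sheathe nerves.

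The genes described here are the collagen chain genes, taken as every gene symbol made of Col, a number, a and a number. The rule found 39 of 20140 genes: 8 fibrillar chains (types I, III, V and XI), 8 basement membrane chains (types IV, XV and XVIII), 5 beaded filament chains (type VI), 2 network chains (type VIII) and 16 others. It left out 7 further symbols that start with Col but name other proteins, among them enzymes and lectins. In 22 of the 39 chains the mean level reached 0.5 in at least 1 cluster of cells, and these are described by value. The nearest of them to that limit was Col4a5, with a highest cluster level of 0.832, and the nearest below it was Col9a3 with 0.475. The other 17 chains stayed between 0.00426 and 0.475 in their highest cluster.

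The study compared 2 droplet libraries of single cells, made with the 10X Genomics system from salivary glands of C57BL6/J mice, females of 14 weeks. In the ligated group a metal clip had closed the ducts of both gland types, submandibular and sublingual, for 14 days. In the mock group the ducts were found at surgery but not clipped, and the mice healed for the same time. Each group was 1 library prepared from 2 glands, and cells bearing EpCAM (epithelial) or Ter119 (red blood cell lineage) and dead cells had been depleted from both, so the libraries describe the cells left over and not the whole gland. With 1 library a group there is no replicate spread, no test and no p-value between ligated and mock, and every difference below describes these 2 libraries.

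Values are means over the cells of a cluster, in UMIs (captured RNA molecules) per 10000 UMIs in a cell. They are not scaled by gene length, so levels are compared between cells and libraries and not between genes. The ligated library held 11406 cells and the mock library 4199, in 12 clusters of all cells. A second set of 5 clusters covered a subset named for Pdgfra, Pdgfrb and Gli1, in which a further 3 clusters were compared. Clusters were called by their marker genes: cluster 0 endothelial-like, 1 natural killer-like, 2 T cell-like, 3 fibroblast-like, 4 a second endothelial-like cluster, 5 macrophage-like, 6 mural-like, 7 ductal-like and 9 Schwann-like. Clusters 8 (acinar genes), 10 (erythroid genes) and 11 (cycling) were given no cell type name. Ligated and mock were compared where both libraries had at least 50 cells, which were clusters 0 to 7 and 10 of the whole set and subset clusters 0, 2 and 3. A difference is log2((ligated + 0.1)/(mock + 0.1)), a scale on which changes of low genes come out too small. A chain is counted as higher or lower where its larger value reaches 0.5 and its difference reaches 1 in size, and each count stands beside the percentage of all genes of that cluster that met the same rule.

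The start regions of the genes that the comparison turns on, and of a pair of chains that share theirs, are shown first. The first 3 lines are the 250 bases before the RefSeq start (GRCm38.p6, the build also called mm10), read 5′ to 3′ on the gene's own strand. Col3a1 is shown as an abundant fibrillar chain, Col8a1 as the chain with the largest difference in fibroblast-like cells and Col15a1 as a chain with lower levels in both fibroblast-like and endothelial-like cells of the ligated library. Capitals mark matches on either strand to 3 short promoter motifs. One is the letters CCAAT, which name the box of that sequence. Another is the GC box, searched as GGGCGG and known as a place where factors of the Sp family bind. The last is the core of the TATA box, searched as TATAAA and known from genes with a sharply placed start.
Col3a1, chr1:45311288-45311537, plus strand: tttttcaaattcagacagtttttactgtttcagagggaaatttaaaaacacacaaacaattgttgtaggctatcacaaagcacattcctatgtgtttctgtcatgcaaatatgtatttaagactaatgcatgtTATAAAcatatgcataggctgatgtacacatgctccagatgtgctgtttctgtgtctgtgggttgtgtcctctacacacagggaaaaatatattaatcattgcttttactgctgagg
Col8a1, chr16:57754738-57754987, minus strand: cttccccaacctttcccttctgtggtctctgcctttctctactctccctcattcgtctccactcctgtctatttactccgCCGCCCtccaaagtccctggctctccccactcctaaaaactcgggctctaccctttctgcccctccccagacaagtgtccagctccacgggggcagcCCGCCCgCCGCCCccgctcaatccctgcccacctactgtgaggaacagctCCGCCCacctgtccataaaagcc
Col15a1, chr4:47207762-47208011, plus strand: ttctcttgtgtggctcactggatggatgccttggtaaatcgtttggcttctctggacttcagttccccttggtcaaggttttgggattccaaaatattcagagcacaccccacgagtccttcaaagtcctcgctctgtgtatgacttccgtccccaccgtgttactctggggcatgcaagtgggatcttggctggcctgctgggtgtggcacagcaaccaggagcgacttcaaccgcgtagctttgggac
Col4a1 and Col4a2 shared bases, chr8:11312805-11312826, plus strand: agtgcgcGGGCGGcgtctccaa

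There were 4 GC boxes in the Col8a1 window, 1 TATA box in that of Col3a1 and none of the 3 motifs in that of Col15a1. In the windows of all 32851 RefSeq entries of the same length, 32.74% held a GC box, 33.85% a CCAAT box and 12.37% a TATA box. Of the 32 chains with an entry, 20 held a GC box, 11 a CCAAT box and 5 a TATA box in at least 1 window. These are matches of letters and not sites of binding. The last line shows the 22 bases that lie in the first exons of both Col4a1 (minus strand, chr8:11198423-11312826) and Col4a2 (plus strand, chr8:11312805-11449287), which point away from each other. Reads from those bases cannot be assigned to 1 of the genes unless counting used the strand, and the counting setting is not given in the sources used here.

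The groups of chains differed in the clusters that held most of their summed level, with both libraries joined. This is a description, since the authors' clusters were formed on the same cells. Fibroblast-like cluster 3 held 89.9% of the summed level of Col1a1 and 88.7% of that of Col1a2, the chains of type I collagen, the main fibre protein. It also held 85.9% of Col3a1, the chain of type III collagen that forms fine reticular fibres, and between 71.0% and 81.5% of Col5a1, Col5a2 and Col5a3, chains of the minor fibrillar type V. Type VI chains lay in the same cells, with 80.4% of Col6a1, 83.7% of Col6a2, 88.9% of Col6a3 and 91.9% of Col6a6. Mural-like cluster 6 was the next holder of Col6a1, with 8.68%.

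Basement membrane chains were spread over several cell types. Endothelial-like cluster 0 held 74.4% of the summed level of Col4a1 and 74.3% of that of Col4a2, the chains of the common type IV network, and cluster 3 held 10.3% and 9.16%. Its cells were also the most numerous, and with every cluster given equal weight the share of Col4a1 in cluster 0 was 25.7%. Col4a5, a type IV chain encoded on the X chromosome, was instead a fibroblast-like chain, with 89.6% in cluster 3. Col15a1, whose product links the basement membrane to the fibres below it, was split between cluster 0 (60.1%) and cluster 3 (32.3%), an order that turned with equal weights (20.0% and 42.6%). Col18a1, whose C-terminal fragment is known as endostatin, had 53.6% in Schwann-like cluster 9 and 20.6% in cluster 3. That order was the ligated library's, with 64.7% and 13.4%. In the mock library cluster 9 held 8.71%, cluster 3 held 49.7% and the second endothelial-like cluster 4 held 22.2%. Cluster 9 had 271 ligated and 17 mock cells.

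Of the remaining chains, Col8a1, a chain of the short-chain network collagen of vessel walls and of Descemet's membrane, had 57.0% in cluster 3 and 27.2% in the second endothelial-like cluster 4. Col13a1, a transmembrane collagen, had 89.1% in endothelial-like cluster 0. Col14a1, which sits on the surface of collagen fibrils, had 70.5% in cluster 3, and Col20a1, of the same fibril-associated class, had 87.2% in Schwann-like cluster 9. Across the 12 clusters the joint levels of Col4a1 and Col4a2 ran closely together (Pearson r = 0.988), as did those of Col1a2 and Col3a1 (0.990) and of Col12a1 and Col16a1 (0.991). Every r was taken on the scale log2(level + 0.1). The chains most like Col1a1 were Col3a1 (r = 0.983), Col1a2 (0.982) and the beaded filament chain Col6a3 (0.981). Over the 231 pairs of the 22 chains the median r was 0.66. These r values describe 12 points that share 2 libraries.

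**Figure D1:**
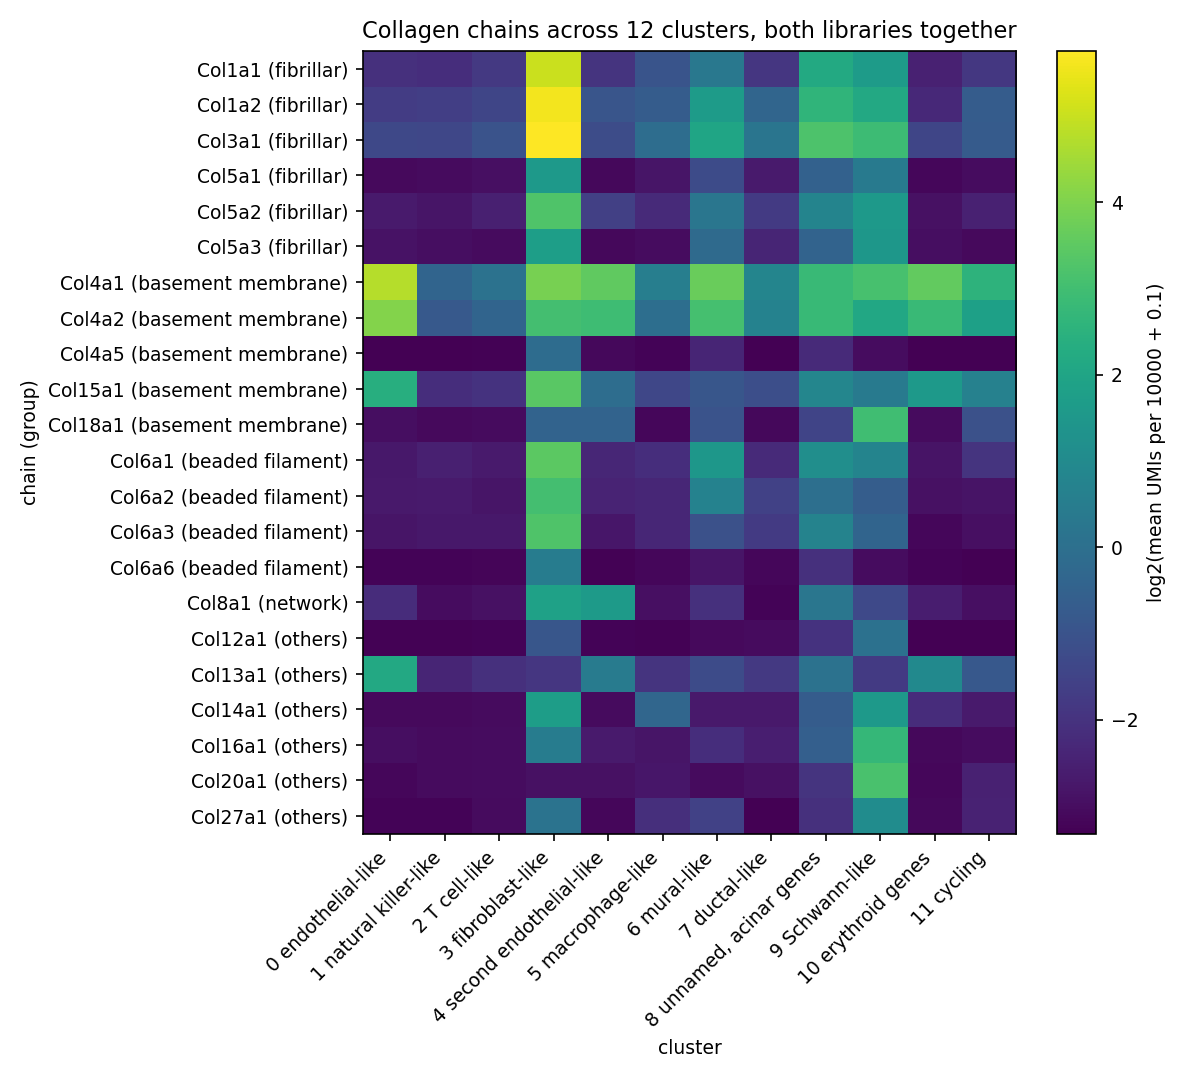
Mean level of the 22 collagen chains that reached 0.5 UMIs per 10000 in a cluster (rows, ordered by group) in each of the 12 clusters of all cells (columns), both libraries together, coloured on the scale log2(level + 0.1). Fibrillar and beaded filament chains are brightest in fibroblast-like cluster 3 (Col3a1 at 54.0), Col4a1 and Col4a2 in endothelial-like cluster 0 (26.6 and 16.6), and Col20a1 in Schwann-like cluster 9 (8.74).

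Some chains that neighbour each other on a chromosome were read in the same clusters, as were chains on different chromosomes. Col1a2 on chromosome 6 and Col6a1 on chromosome 10, for example, had r = 0.975. Col3a1 and Col5a2 on chromosome 1 point towards each other with 24614 bases between them (r = 0.975). Col6a1 and Col6a2 on chromosome 10 lie on the same strand with 85161 bases between them (r = 0.968). The divergent pair Col4a4 and Col4a3 on chromosome 1 starts 72 bases apart, and that of Col4a6 and Col4a5 on chromosome X starts 1309 bases apart. Their r values were 0.69 and 0.63, near the median of 0.66 over all pairs of the chains described by value. Col6a6 and Col6a5 on chromosome 9 lie on the same strand with 27917 bases between them (r = 0.906). Like the 2 divergent pairs just named, this pair had at least 1 chain below 0.5 in every cluster.

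Averaged over every cell of a library, the sum of all collagen chains came to 43.4 (ligated) and 47.9 (mock), with a different make-up. The fibrillar sum was 17.9 for ligated and 6.98 for mock cells, a ratio of 2.57, and the beaded filament sum was 3.55 and 1.70, a ratio of 2.08. The basement membrane sum was 18.6 and 35.4, a ratio of 0.526. Cell numbers moved with these sums: fibroblast-like cells made up 10.1% of ligated and 4.48% of mock cells, and endothelial-like cluster 0 was 25.8% and 56.3%. When the ligated levels of each cluster were weighted by the cell mix of the mock library, the ratios were 1.24 for fibrillar, 1.05 for beaded filament and 0.846 for basement membrane chains. The network sum kept a ratio of 2.11 by that weighting, against 3.04 with each library's own mix. The share of cells after depletion and the number of cells in the gland cannot be told apart here.

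Within the fibroblast-like cells, the abundant fibrillar chains were close in both libraries. These are 1149 ligated and 188 mock cells, with median UMI totals of 14253.5 and 12821 over the cells whose total could be recovered. The fibrillar sum was 154 in ligated and 137 in mock cells, and the sum of all chains was 229 and 224. Of 19 chains with a larger value of at least 0.5, 1 was higher in the ligated library (4.47% of all genes in this cluster were) and 1 was lower (5.32% of all genes). Both shares are near those of all genes, and the median difference over the chains was -0.02, beside -0.06 over all genes.

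Col1a1 (chr11:94936224-94953042) had 34.2 UMIs per 10000 in ligated and 24.5 in mock fibroblast-like cells, a difference of 0.48. Its partner chain Col1a2 had 49.2 and 46.2 (difference 0.09), and Col3a1 (chr1:45311538-45349706) had 54.9 and 48.6 (difference 0.18). All 3 were slightly higher in the ligated library, with none past the size rule. The ratio of Col1a1 to Col1a2 UMIs was 0.696 in ligated and 0.530 in mock cells. The type V chains, which nucleate type I fibrils and limit their width, did not move together: Col5a1 was 2.72 and 4.17, Col5a2 was 9.63 and 8.74, and Col5a3 was 3.03 and 5.19. Col5a1 and Col5a3 were lower in the ligated library by differences of -0.60 and -0.76, and Col5a2 was higher by 0.14.

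Col8a1 (chr16:57624258-57754737) had the largest difference of any chain in these cells. It had 4.05 UMIs per 10000 in ligated and 0.362 in mock fibroblast-like cells, a difference of 3.17. In a mock cell of median depth, 1 UMI adds 0.00415 to the mean of the 188 cells, so the mock value rests on many UMIs. In the whole mock library cluster 3 held 7.66% of the summed Col8a1 level and the second endothelial-like cluster 4 held 67.4%, while in the ligated library they held 62.9% and 22.4%. Cluster 4 itself had 3.12 in ligated and 2.65 in mock cells, a difference of 0.23. In the other endothelial-like clusters Col8a1 had 0.157 and 0.0783 (cluster 0) and 1.20 and 0.386 (cluster 3 of the subset, a difference of 1.42). Col8a2, the second chain of the type, was below the limit of 0.5, at 0.416 and 0.303.

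Col18a1 (chr10:77052178-77166548) was the chain with the largest difference in the other direction. Ligated fibroblast-like cells had 0.392 and mock ones 2.21, a difference of -2.23. Col15a1 (chr4:47208161-47313167) had 9.76 and 16.7, a difference of -0.77, which is short of the size rule. The type IV chains stayed close, with 14.2 and 17.5 for Col4a1 and 8.15 and 7.83 for Col4a2. The basement membrane sum of these cells was 34.1 (ligated) and 45.5 (mock), so it was lower while the fibrillar sum was not.

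The beaded filament chains hardly differed. Col6a1, whose product is one of the 3 chains of the common type VI monomer, had 10.95 in ligated and 11.1 in mock cells, Col6a2 had 8.13 and 8.94, and Col6a3 had 9.33 and 9.48. Their differences were -0.02, -0.13 and -0.02. Col6a6, an alternative chain for the third position, had 1.26 and 1.62. Among the other chains Col14a1 was lower in the ligated library, at 2.86 against 5.49 (difference -0.92), which puts it just outside the rule. Col16a1, a fibril-associated chain, had 1.35 and 0.996, and Col27a1, a fibrillar chain by its structure that the grouping counts among the others, had 0.983 and 1.13.

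Chains with larger values below 0.5 are not counted, but 3 of them differed by at least 1 in fibroblast-like cells, and they are named here after their values were seen. No share of all genes at such levels is given, so their number says nothing about collagen chains as a group. Col11a1, a fibrillar chain best known from cartilage, had 0.404 in ligated and 0.0228 in mock cells. Col28a1 had 0.341 and 0.00933, and Col6a5 had 0.116 and 0.470. The mock values of Col11a1 and Col28a1 equal a few UMIs in all 188 cells, where 3 UMIs come to 0.0124.

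Other values moved with the libraries in this cluster. The summed level of 7 fibroblast markers was 215 in ligated and 415 in mock cells: Gsn had 74.7 and 197, Dcn 96.7 and 158 and Dpt 1.15 and 8.77, while Mfap5 had 10.4 and 5.98. Markers of other cell types stood at a median of 10.2% of their library mean in ligated and 3.30% in mock fibroblast-like cells, a measure of RNA from other cells. Subtracting such a share of the library profile from each value left Col8a1 at 3.99 and 0.355 and Col18a1 at 0.362 and 2.205. The part of the marker change in the collagen values was not tested.

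**Figure D2:**
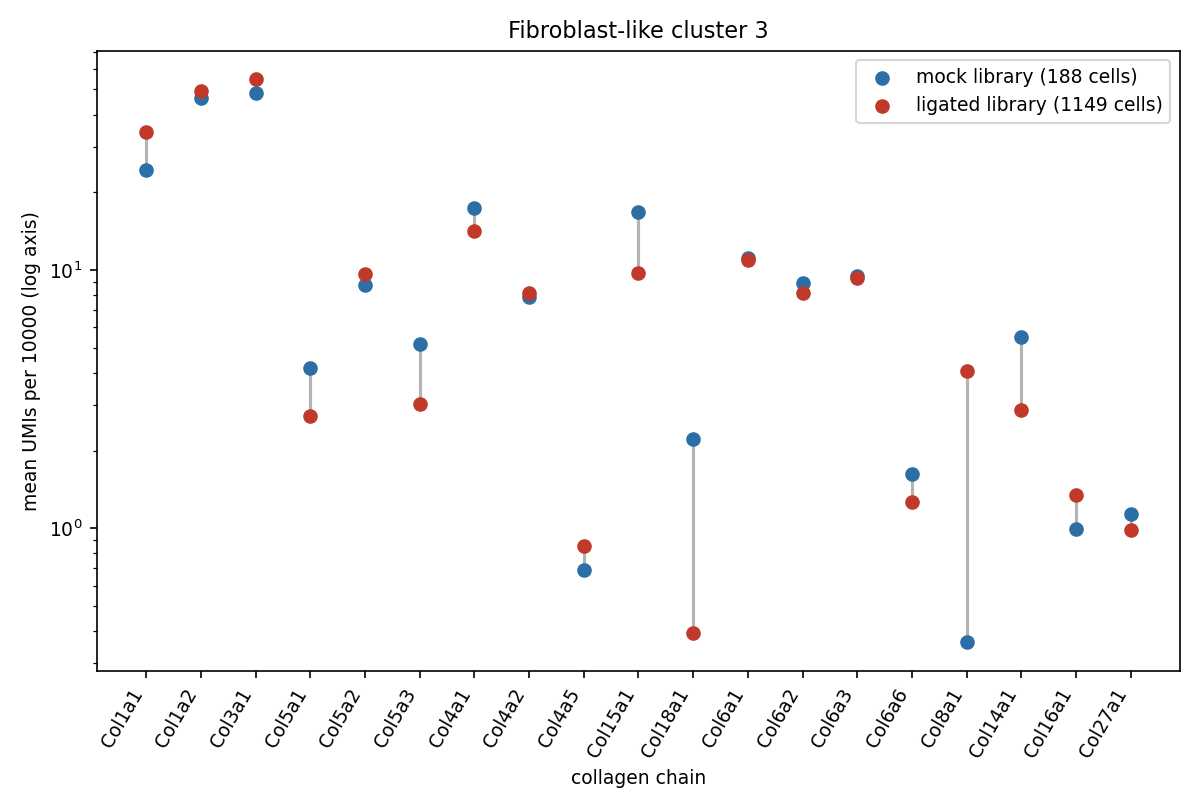
Mean UMIs per 10000 (log axis) of the 19 collagen chains with a value of at least 0.5 in fibroblast-like cluster 3, in the ligated (red, 1149 cells) and mock (blue, 188 cells) library, with a line joining the pair of values; there is 1 library a group and no error bar. Most pairs lie close together, and the widest gaps are Col8a1 (4.05 ligated, 0.362 mock) and Col18a1 (0.392 ligated, 2.21 mock).

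The fibroblast-like cluster 0 of the Pdgfra, Pdgfrb and Gli1 subset, with 949 ligated and 167 mock cells from the same libraries, gave nearly the same values. How many of these cells also lie in cluster 3 is not given in the sources used here. Col8a1 had 4.40 and 0.338, Col18a1 had 0.401 and 2.38 and Col14a1 had 2.76 and 5.23. Of 20 chains with a value, 1 was higher (4.75% of all genes) and 2 were lower (5.31% of all genes), the second of these being Col6a5 at 0.114 and 0.520. In this cluster the summed level of 7 endothelial markers was 0.874 in ligated and 1.13 in mock cells, against 2.87 and 3.04 in cluster 3. The part of endothelial RNA in these collagen values was not tested.

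A second fibroblast-like cluster of the subset, cluster 4, was small, with 17 ligated and 10 mock cells, and is described without a comparison of the libraries. It had more fibrillar and less basement membrane collagen than cluster 0 in each library. The fibrillar sum was 314 and 148 in ligated and mock cells of cluster 4, against 156 and 140 in cluster 0. The basement membrane sum was 2.11 and 6.30, against 34.9 and 48.3. Col3a1 reached 136 and 55.4 and Col14a1 17.5 and 10.9, while Col15a1, at 10.1 and 18.05 in cluster 0, was at or near 0 in both libraries of cluster 4. The same cells had Dpt at 40.2 and 24.2 and Clec3b at 31.9 and 20.1, a pair of genes used as markers of adventitial fibroblasts.

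In mural-like cluster 6, with 420 ligated and 161 mock cells, all 13 chains with a value were lower in the ligated library, as were 56.0% of all genes. The rule was passed by 4 of them (4.50% of all genes in this cluster were lower). That count became 10 after background subtraction, and 1 after centring on the median of all genes, with a pseudocount of 1 or with a minimum of 2. No share of all genes is given for these settings. The subtraction took 21.0% of the library mean from ligated values (quartiles of the markers 13.8% and 27.0%). From mock values it took 1.38% (quartiles 0% and 13.8%). The median difference over the chains was -0.81, beside -0.07 over all genes. The basement membrane sum was 17.3 in ligated and 35.9 in mock cells, the fibrillar sum 9.10 and 13.6 and the beaded filament sum 4.22 and 5.90. Pericytes and smooth muscle cells are enclosed in a basement membrane that they share with endothelium.

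Col4a1 had 9.80 UMIs per 10000 in ligated and 20.7 in mock mural-like cells, a difference of -1.07. Col4a2 had 6.61 and 13.3, a difference of -0.999 that lay just outside the rule. The ratio of Col4a1 to Col4a2 was 1.48 and 1.55, so both chains of the pair were lower by similar factors. Col18a1 had 0.280 and 0.695 (difference -1.06), Col15a1 had 0.315 and 0.752 (-1.04) and Col13a1 had 0.221 and 0.578 (-1.08), all at low levels. Col1a1 had 0.881 and 1.85 (-0.99), while Col3a1 (3.63 and 4.76), Col5a2 (1.01 and 1.24), Col6a1 (2.47 and 3.38) and Col6a2 (1.38 and 1.93) were closer.

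Mural-like cluster 2 of the subset had 274 ligated and 128 mock cells from the same libraries. How many of them also lie in cluster 6 is not given in the sources used here. All 12 chains with a value were lower in the ligated library (53.2% of all genes had the lower value there), 1 of them past the rule (4.26% of all genes were lower). That chain was Col18a1, at 0.258 and 0.729. Col4a1 had 10.9 and 21.7 (difference -0.99) and Col4a2 had 7.29 and 14.1 (-0.94), both just short of it, and the median over the chains was -0.46, beside -0.03 over all genes. Col15a1 had 0.140 and 0.117 there, a difference of 0.15 in the opposite direction. The summed level of 7 endothelial markers was 8.15 in ligated and 11.4 in mock cells of cluster 6, and 2.06 and 1.42 in the subset cluster. The part of endothelial RNA in the values of the chains was not tested.

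Markers of the mural cells were themselves lower in the ligated library. In cluster 6 the summed level of 7 mural markers was 112 in ligated and 166 in mock cells, with Myh11 at 4.20 and 14.4, Acta2 at 20.8 and 35.4 and Rgs5 at 56.1 and 73.5, while Pdgfrb stood at 12.6 and 12.7. Median UMI totals were 4948 and 6486. Markers of other cell types stood at 21.0% of their library mean in ligated and 1.38% in mock cells, and subtraction of that share widened the gap to 7.69 and 20.4 for Col4a1. Whether the make-up of the cluster, as pericytes and smooth muscle, moved with these values was not tested.

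**Figure D3:**
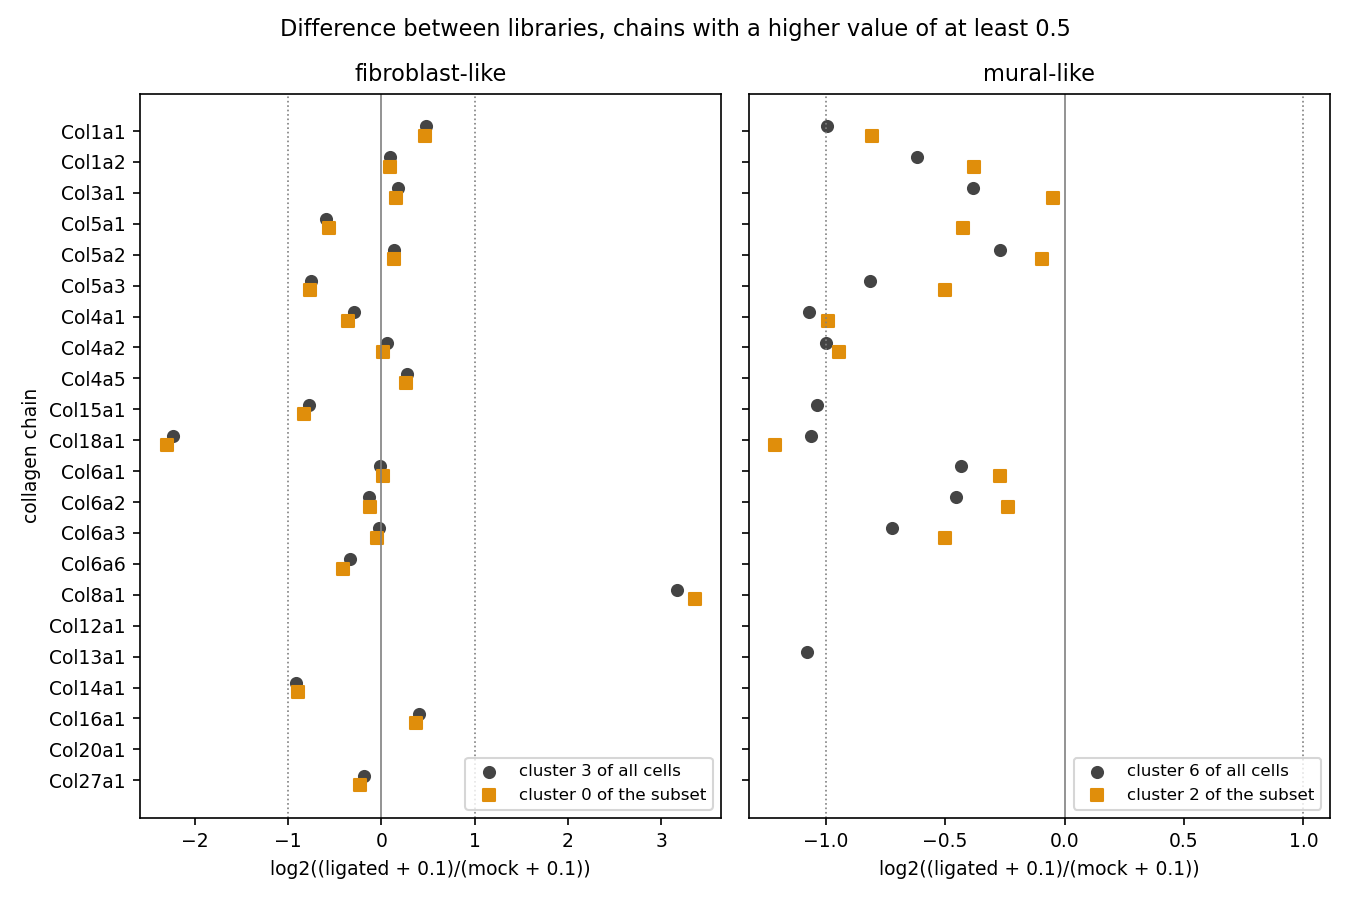
Difference between the ligated and mock library, log2((ligated + 0.1)/(mock + 0.1)), for collagen chains with a larger value of at least 0.5, in the fibroblast-like clusters (left) and the mural-like clusters (right); circles are clusters of all cells, squares are the matching clusters of the subset, and dotted lines mark a size of 1. Fibroblast-like points scatter around 0 apart from Col8a1 (3.17) and Col18a1 (-2.23), while mural-like points lie below 0.

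**Figure D4:**
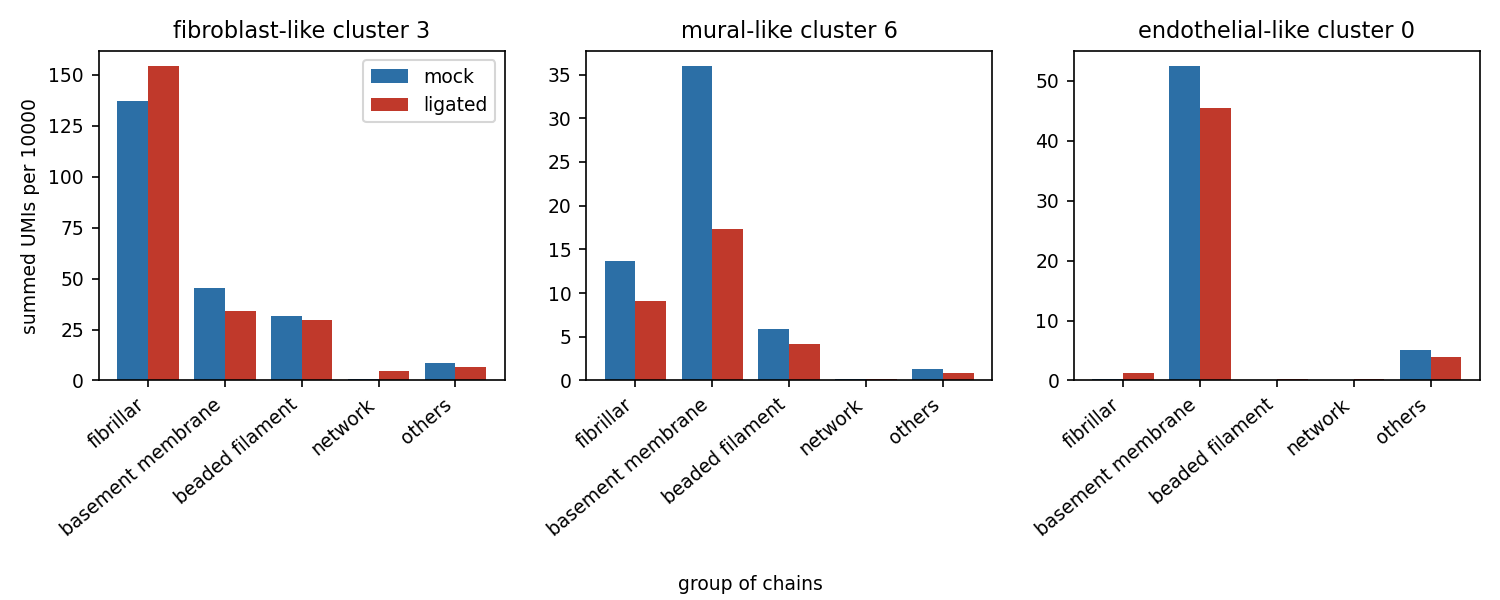
Summed UMIs per 10000 of each group of collagen chains in fibroblast-like cluster 3, mural-like cluster 6 and endothelial-like cluster 0, mock (blue) and ligated (red), with 1 library a group and a separate scale for each panel. The fibrillar sum of cluster 3 is 137 mock and 154 ligated, and the basement membrane sum of cluster 6 is 35.9 mock and 17.3 ligated.

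Endothelial-like cluster 0, with 2948 ligated and 2363 mock cells, kept its type IV chains at nearly the same level. Col4a1 had 26.4 in ligated and 26.8 in mock cells and Col4a2 had 16.2 and 17.0, differences of -0.02 and -0.07. Col15a1 was the exception, at 2.58 in ligated and 8.11 in mock cells, a difference of -1.61. It was the 1 chain of the 4 with a value that was lower by the rule (2.68% of all genes). Col13a1 had 3.78 and 5.03 (difference -0.40). The distribution of Col15a1 over cell types also differed, with shares that depend on cell numbers as well as levels: cluster 0 held 35.9% of its summed level among ligated and 82.1% among mock cells, and fibroblast-like cluster 3 held 52.9% and 13.5%. Cluster 0 was 25.8% of ligated and 56.3% of mock cells, and its share of Col4a1, whose level hardly differed there, was 68.2% and 83.9%.

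Values of endothelial markers moved beside Col15a1 in that cluster. Kdr, the main VEGF receptor of vessels, had 16.8 and 31.2, Flt1 had 32.3 and 47.2 and Pecam1 had 18.3 and 14.5. Col15a1 was also the lower value in every other compared cluster in which it reached 0.5, at 0.667 in ligated and 1.25 in mock cells of the second endothelial-like cluster 4 and 1.74 and 3.58 in cluster 10. In cluster 4, with 531 ligated and 226 mock cells, Col4a1 had 10.0 and 15.1 and Col4a2 6.76 and 9.49, both lower in the ligated library by less than the rule. Col18a1 had 0.575 and 0.823 and Col13a1 had 1.25 and 1.31 there.

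Schwann-like cluster 9 held several chains that were low in most other clusters, from 271 ligated and 17 mock cells, too few for a comparison of the libraries. Col20a1 had 8.94 in ligated and 5.64 in mock cells, Col18a1 had 8.03 and 4.29 and Col16a1 had 6.74 and 3.54. Col5a3 had 2.74 and 2.50 and Col27a1 had 2.03 and 2.14. Col28a1, a chain known from peripheral nerve, had 0.324 and 1.52, and Col9a3 had 0.483 and 0.342, its highest cluster in the data. In this cluster 17 mock cells mean that 3 UMIs come to 0.378, so the lowest of these mock values are within a few UMIs of 0.

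In clusters that are not known for making fibrillar collagen, the chains stood at levels like those of other cells' markers. In the ligated library Col1a1 was at 5.91% of its library mean in endothelial-like cluster 0, 4.02% in natural killer-like cluster 1 and 11.8% in macrophage-like cluster 5. Markers of other cell types stood at 9.36%, 7.37% and 23.8% in the same clusters. In the mock library Col1a1 was at 2.19%, 1.02% and 0.660%, and the markers at 3.37%, 2.21% and 10.5%. Mural-like cells were different, with Col3a1 at 56.1% of its library mean in ligated and 194% in mock cells, above the markers' 21.0% and 1.38%.

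**Figure D5:**
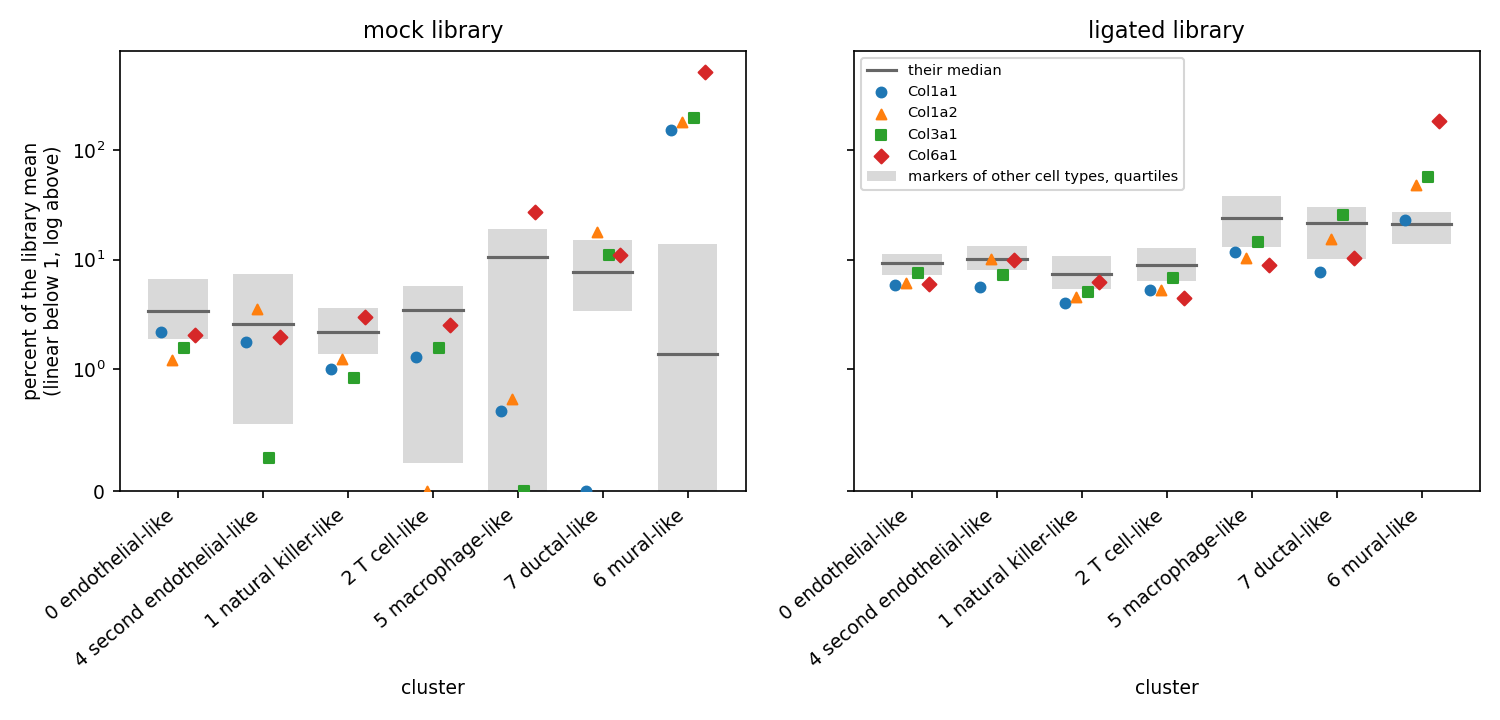
Levels of Col1a1, Col1a2, Col3a1 and Col6a1 in clusters other than the fibroblast-like one, as percent of the mean over all cells of the library (linear below 1, log above), in the mock (left) and ligated (right) library; grey boxes span the quartiles of markers of other cell types in the same cluster and the line is their median. Outside mural-like cluster 6 the chains mostly lie in or below the boxes, which themselves are higher in the ligated library (9.36% against 3.37% in endothelial-like cluster 0).

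Counts of higher chains in those clusters are to be read beside that background. In natural killer-like cells 2 of 2 chains with a value were past the rule (4.56% of all genes were, in either direction), both higher in the ligated library, Col4a1 at 0.745 against 0.199 and Col4a2 at 0.539 against 0.213. In macrophage-like cells Col3a1 (0.944, listed at 0 in mock) and Col1a2 (0.584 and 0.0174) were higher (4.15% of all genes). In cluster 4, the second endothelial-like one, Col1a2 was higher, at 0.569 and 0.0812 (3.29% of all genes), and in cluster 10 Col3a1 was, at 0.656 and listed at 0 in mock (23.0% of all genes). In ductal-like cells, which had median UMI totals of only 982.5 and 1076.5, Col3a1 was 1.64 and 0.270 and Col4a1 2.29 and 0.805 (14.8% of all genes). After the background share was subtracted, none of these was past the rule. Col15a1 then passed it as lower in cluster 4 (-1.07) and cluster 10 (-1.16). T cell-like cells had Col4a1 at 0.958 and 0.987 and Col4a2 at 0.654 and 0.623, and no chain past the rule in either direction. Col14a1 had 0.685 and 0.826 in macrophage-like cells, and 0.583 and 0.795 were left after subtraction. In the same cells Col1a2, Col3a1 and Col4a1 came to 0 in both libraries after subtraction, and Col4a2 to 0 in ligated and 0.401 in mock cells.

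Endothelial-like cluster 3 of the subset, with 260 ligated and 82 mock cells, had 10 of 15 chains higher in the ligated library (6.29% of all genes). All 6 fibrillar chains with a value were among them, such as Col1a1 at 9.87 and 1.11 and Col3a1 at 14.4 and 2.55, with a fibrillar sum of 41.8 and 8.02. Col4a1 (22.9 and 25.8) and Col4a2 (13.5 and 14.9) stayed close, and Col15a1 had 4.36 and 7.55. Fibroblast markers moved with the fibrillar chains: their summed level was 48.7 in ligated and 25.8 in mock cells, with Dcn at 20.9 and 9.01, Lum at 4.48 and 1.33 and Mfap5 at 2.87 and 0.186. The summed level of endothelial markers was 68.4 and 123. Doublets were not removed here, and the part of droplets holding a fibroblast and an endothelial cell in these values was not tested.

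Genes that handle collagen were read from 4 lists of 54 genes: folding and modification in the cell (20), processing and crosslinking outside it (12), receptors (10) and degradation with its inhibitors (12). In fibroblast-like cluster 3, 36 of the 54 had a value of at least 0.5, 2 of them higher and 3 lower in the ligated library, beside 4.47% and 5.32% of all genes. The higher genes were Timp1, an inhibitor of matrix metalloproteinases, at 6.58 in ligated and 1.20 in mock cells, and Lox, which crosslinks collagen fibres, at 3.39 and 1.41. The lower genes were Mmp2, a gelatinase, at 5.82 and 12.4, the collagen receptor gene Ddr2 at 1.11 and 2.66, and Pcolce2, an enhancer of procollagen cleavage, at 0.154 and 0.807. None of the 16 folding and modification genes with a value passed the rule, among them the collagen chaperone gene Serpinh1 at 11.2 and 13.0.

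In mural-like cluster 6, 20 of the 54 genes had a value, 1 of them higher and 3 lower, beside 4.92% and 4.50% of all genes. Timp3, an inhibitor bound to the matrix, had 10.4 in ligated and 22.6 in mock cells, Itgb1, the shared beta chain of the collagen-binding integrins, had 6.11 and 14.2, and P4ha2, a subunit of prolyl hydroxylase, had 0.172 and 0.523. Ctsk, a protease that cuts collagen, was the higher one at 0.591 and 0.169. In endothelial-like cluster 0, 12 of the 54 had a value and none passed the rule, beside 3.92% of all genes higher and 2.68% lower. In mural-like cluster 2 of the subset, 21 of the 54 had a value, 1 of them higher and 3 lower, beside 4.26% of all genes each way. The higher gene was Ctsk. The lower genes were Itgb1, Loxl2 and P4ha2, and Timp3 was not among them. Timp3 was also lower by the rule in macrophage-like cluster 5 and endothelial-like cluster 3 of the subset, and higher in ductal-like cluster 7.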

How the data were processed

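Single cells of 2 libraries, 1 ligated and 1 mock, were measured with the 10X Genomics system. The submitters' processing notes name Cell Ranger 6.0.1, Seurat and mm10, with no settings. The authors deposited 4 tables of linear means per cluster, UMIs per 10000 UMIs in a cell (unit other, neither counts nor log values). This unit was read from the values: every column sums to 10000, and joint values are weighted means of the split values (largest residual 1.5e-07). Of the gene names, 21 had turned into dates in the split tables and were restored from gene order. No column (0) was without a sample. Whether the authors removed doublets is not given in the sources used here.

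Cell numbers per cluster and library were recovered from genes listed at 0 in 1 library, whose joint to split ratio is a share of whole cells (tolerance 2e-09), and UMI totals of single cells from genes seen in 1 cell (tolerance 1e-06). Such totals favour deeper cells. They were found for 2264 ligated cells (median 6490) and 623 mock cells (median 6572). The recovery and the size rule were checked on simulated cells.

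Names of clusters (X-like) rest on 14 lists of 76 marker genes, of which 75 had a row. Differences used a pseudocount of 0.1, a larger value of at least 0.5 and a size of 1 (log2), in clusters with 50 cells in each library. Background was the median level, as percent of the library mean, of markers of other cell types with a library mean of at least 0.1. Positions came from GENCODE vM21 and start regions from RefSeq (GRCm38.p6), where 7 of the 39 chains had no entry. Chains were named where they reached 0.5 in any cluster, and other genes where they belong to the marker lists or to the collagen pathway lists and pass the size rule in fibroblast-like or mural-like cells; Serpinh1, Col11a1, Col28a1, Col6a5, Col8a2 and Col9a3 were named after their values were seen. The chains and the lists were chosen with earlier results of these data known. Alternatives were other pseudocounts, minimum values and sizes, background subtraction, centring, the subset clusters, other weights of the clusters and, chosen after seeing the data, a common cell mix. Python 3.11.15, numpy 2.4.6 and pandas 2.3.3 were used.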

Additional observations from a re-analysis of the deposited data

Results flagged for a closer look

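Col4a1 differed between libraries in opposite directions in natural killer-like cluster 1 (0.745 ligated and 0.199 mock, difference 1.498) and in mural-like cluster 6 (9.80 and 20.7, difference -1.07), a gap of 2.57 between clusters on the log2 scale. The gap was not tested. After subtraction of the background share, Col4a1 in natural killer-like cells was 0.00647 and 0, below the minimum of 0.5.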

How the results depend on the processing

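With 1 library a group and 10 to 3353 cells behind a value, no setting stands in for replication. No paired analysis was possible because each group has 1 library and no result comes from a test. Of 107 differences of single chains, 28 were past the size rule. With a pseudocount of 1, 92 of the 107 stayed on their side of it, and 15 of the 28 fell short of it. The numbers that stayed were 102 with a pseudocount of 0.01, 86 after background subtraction and 101 after centring on all genes. Among the 28 past the rule, the direction turned in 2 cases: Col1a2 in the second endothelial-like cluster, -0.28 after subtraction, and Col15a1 in mural-like cells, 0.15 in the subset. In the first case subtraction left almost nothing, 0.000187 in ligated and 0.0216 in mock cells, where 3 mock UMIs come to 0.0205. Smaller differences also turned, such as that of Col4a2 in ductal-like cluster 7, at 0.274 ligated and 0.520 mock after subtraction. Causes were not tested.

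Counts of chains past the rule moved as follows. No share of all genes is given for these settings, so the counts show only how the main counts depend on them. With a pseudocount of 1 there were 0 in clusters 1, 4, 5, 10 and subset cluster 2, 1 in clusters 6 and 7 and 6 in subset cluster 3, and with 0.01 there were 2 in cluster 10. After subtraction there were 0 in clusters 1, 5 and 7, 10 in cluster 6 and 4 in subset cluster 2. After centring there were 1 in cluster 6 and 3 in cluster 10. With no minimum there were 4 in clusters 0, 4 and 10, 5 in clusters 1, 3, 5 and subset cluster 0, 3 in cluster 2, 8 in cluster 7, 2 in subset cluster 2 and 16 in subset cluster 3. With a minimum of 2 there were 0 in clusters 1, 4, 5, 10 and subset cluster 2, and 1 in clusters 6 and 7. With a size of 2 there were 0 in clusters 0, 1, 4, 6 and subset cluster 2, 1 in cluster 7 and 3 in subset cluster 3.

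Median differences were 0.44 in cluster 1 and 0.67 in subset cluster 3 with a pseudocount of 1, and 0.078 in cluster 1, 0.17 in cluster 4, 0.48 in cluster 7 and 0.82 in subset cluster 3 with no minimum. The median of cluster 7 reversed to -0.73 after subtraction, but only Col4a2 still reached 0.5 there, so this is the value of 1 chain. The fibrillar sum of cluster 6 moved to -1.33. Shares of summed levels with equal cluster weights were 25.7% for Col4a1, 20.0% for Col15a1 and 42.6% for Col13a1 in cluster 0. In the ligated library alone Col15a1 had 35.9% in cluster 0 and 52.9% in cluster 3, and in the mock library alone cluster 3 held 13.5% of Col15a1, 4.35% of Col4a1 and 7.66% of Col8a1. Pathway genes past the rule were 1 in cluster 3 and 2 in cluster 6 with a pseudocount of 1, and 2 in cluster 6 with a minimum of 2, again with no share of all genes given. At the mock cell mix, an alternative chosen after seeing the data, the ratios of ligated to mock were 1.24 for fibrillar, 0.846 for basement membrane and 1.05 for beaded filament chains.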

Other observations

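Cluster 8, led by acinar genes and given no cell type name, held most collagen chains in the ligated library (264 cells) and few in the mock library (25 cells, too few for a comparison). Col3a1 had 10.1 in ligated cells and was listed at 0 in mock cells, Col4a1 had 7.65 and 0.591 and Col6a1 had 2.36 and was listed at 0. Markers of other cell types stood at 108% of their library mean in ligated and 1.56% in mock cells of the cluster. Median recovered UMI totals were 995.5 and 5440. The unnamed cluster 1 of the subset had Col1a1 at 7.49 in 435 ligated and 3.85 in 14 mock cells beside markers of other cell types at 124% and 17.0% of their library means.

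Of the chains that stayed below 0.5, Col4a3 and Col4a4, type IV chains best known from the kidney glomerulus, were lower in ligated than in mock cells of endothelial-like cluster 0, at 0.111 and 0.296 and at 0.0557 and 0.185. Col24a1 was listed at 0 in all mock clusters and was highest in fibroblast-like cells, at 0.0115 over both libraries. Of the collagenase genes in the pathway lists, Mmp8 and Mmp13 had values in 1 library only. The same held for 3844 of all 20140 genes, and for Col24a1 alone among the 39 chains.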
